A study of Mus musculus with 12 samples.

Results

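The 200 mRNAs described here carried the most ribosome footprints per normalized mRNA count in Ba/F3 clones that express wild-type human RPL10. Of the 10080 genes measured by both assays, 7739 reached a normalized count of 50 in all 6 WT libraries, and 7453 candidate genes were left once the symbols of replication-dependent histones, cytosolic and mitochondrial ribosomal proteins, proteasome subunits, and NADH dehydrogenase, cytochrome oxidase and ATP synthase subunits were set aside. The candidates were ranked by translation efficiency (TE), taken as log2(RPF + 1) minus log2(mRNA + 1) and averaged over WT clones 28, 29 and 36. RPF stands for ribosome-protected fragments counted over coding sequence, and mRNA for matched RNA sequencing reads counted over exons. The 200 highest, 2.68% of the candidates, are the members. Because WT values chose them, the height of their WT values is not a result.

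Ba/F3 is a mouse lymphoid line that grows on interleukin 3. All 6 clones carried a retroviral human RPL10 cDNA and an shRNA against the mouse Rpl10, grew from single cells, and were kept for strong loss of the endogenous transcript. Clones 11, 13 and 35 express RPL10 R98S, an arginine-to-serine change of ribosomal protein uL16, and clones 28, 29 and 36 express RPL10 WT. Each clone gave 1 footprinting and 1 mRNA library from cells held in cycloheximide, which freezes elongating ribosomes, at 100 µg/ml for 5 min, so each genotype has n = 3 clones and a difference between genotypes cannot be told apart from a difference between these clones.

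A translating ribosome shields a short piece of mRNA from nuclease, and the number of such pieces from a coding sequence rises with the number of transcripts and with the number of ribosomes on each. Dividing footprints by mRNA reads removes the first of these. What is left depends on how often ribosomes start, on how slowly they move, and on which stretches of the gene each assay counts. Features to look at in such a list are the lengths of the coding sequence and of the untranslated regions. Another is the share of secreted or membrane proteins made at the endoplasmic reticulum (ER).

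The start codons of the first members with an annotated upstream sequence are given because the counted footprints lie downstream of them. The 12 bases run from 6 before the A of the start codon to 6 from it, both ends included, as in GENCODE vM21 on GRCm38. Capitals mark the base at -3, the ATG and the base at +4, the positions at which vertebrate start codons most often have a purine and a G.
Hypk: cagCctATGCgg
Ckm: gccAccATGCcg
Cmtr1: ctaAcaATGAag
H2afx: tacActATGTcc
Dpysl2: ggaGagATGTct
Emc1: tcaAtcATGGcg
Aimp2: cccAccATGCcg
Naa38: gggCcaATGGcc
Bloc1s1: tcgAccATGCtg
Gatad2b: gccAggATGGat

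Among the first 20 members, 11 of the 18 with such a sequence had A or G at -3, against 171 of 194 among all members (88.1%) and 6290 of 7247 among the candidates (86.8%). The combination of a purine at -3 with G at +4 occurred in 87 of 194 members (44.8%) and in 47.7% of candidates. Hypk and Naa38 had neither A nor G at -3. The sequences come from the transcript with the longest annotated coding sequence, which need not be the one these cells use. A cytosine followed by 4 pyrimidines at the annotated 5′ end, the pattern of terminal oligopyrimidine mRNAs, was present in 4 members (2.0%) and in 2.1% of candidates.

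The recovered depth was 20576796 to 23136595 reads in 5 of the 6 mRNA libraries and 6617457 in that of WT clone 28, and the footprint libraries held 3477723 to 10883086 reads. The interleukin 3 receptor genes Csf2rb and Il3ra and the pan-leukocyte gene Ptprc were at 560 normalized mRNA counts or more in every library, and of the 8 genes of that list 7 had at least 10 counts in every library and Kit was at 0 throughout; their summed level was 108914 to 130753 counts in R98S and 54699 to 100723 in WT clones. Of 10 B lineage markers, Cd79a and Cd79b had at least 10 counts in every library, and Pax5 and Rag1 were at 0 in all of them; the list summed to 1352 to 1671 counts in R98S and 896 to 1157 in WT clones. Of 12 genes listed as markers of other cell types, Pecam1 (2304 to 4003 counts) and Gfap (10.7 to 62.8 counts) had at least 10 in every library and 3 were at 0 throughout, with sums of 2780 to 3728 counts in R98S and 2350 to 4043 in WT clones. Pecam1 made up nearly all of this last list's sum, and no other cell type was read from it. The part of these marker sums in the TE values was not tested. Rpl10 itself had 1449 to 2905 normalized mRNA counts in R98S clones and 2230 to 4501 in WT clones. Reads of the human transgene and of the mouse gene could not be told apart in these tables.

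WT clone 28 stood apart in the members. Their median TE was 0.73 in that clone, 0.13 in WT clone 29 and 0.18 in WT clone 36, and it was 0.047, 0.18 and 0.22 in R98S clones 11, 13 and 35. The candidates moved little, with medians from -1.61 to -1.51 over the 6 clones. In WT clone 28, 152 of 200 members (76.0%) had a TE above those of both other WT clones, against 48.0% of candidates. Set against the mean of the other 5 clones, the members had a median deviation of -0.23 log2 units in its mRNA library and of 0.29 in its footprint library. Across 7431 candidates, the deviation of its mRNA values from the other clones had a Spearman correlation of -0.39 with transcript length, and the same measure lay between -0.16 and 0.26 in the other 5 clones. These correlations are across genes of 1 library and describe that library. Several WT means are also given without WT clone 28.

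**Figure D1:**
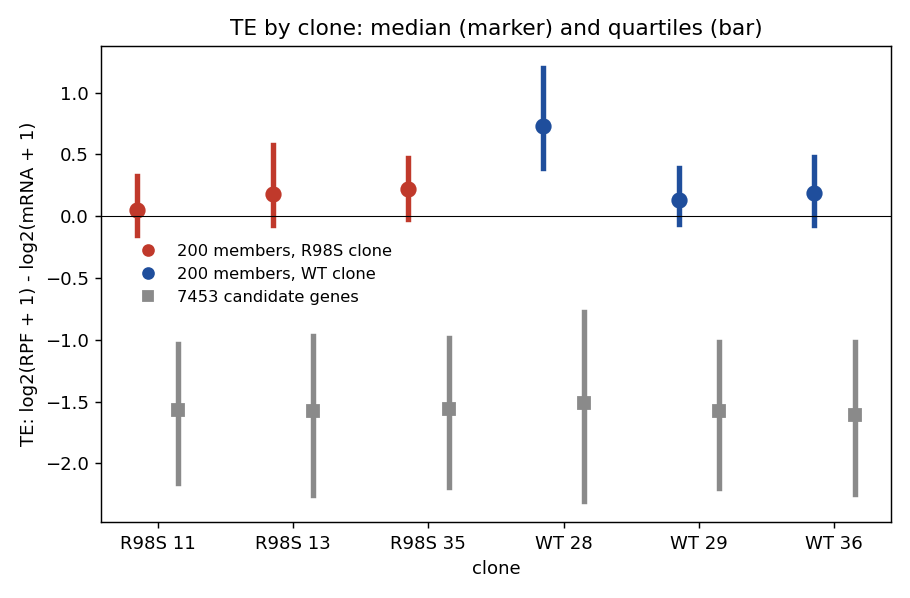
Translation efficiency (log2 RPF + 1 minus log2 mRNA + 1, vertical axis) in each of the 6 clones. Circles are medians of the 200 members and squares medians of the 7453 candidate genes, with bars from the first to the third quartile; WT clone 28 has the highest member median, 0.73.

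The members lay far above the other genes in R98S clones as well, which the choice did not use. Their median TE exceeded the candidate median by 1.62, 1.75 and 1.78 log2 units in R98S clones 11, 13 and 35, and all 200 members were above the candidate median in every clone. When the 200 highest were chosen on the R98S clones by the same rule, from 7521 candidates, 140 genes were in both lists, 70.0% of each. The median R98S rank of the members was 121, and 184 were among the 400 highest. Bloc1s1, Arsb and Acta2 had no R98S rank because they fell under 50 counts in an R98S library, and the lowest rank of the others was 636, for Tcp11l2. Choosing on WT clones 29 and 36 alone kept 146 members.

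**Figure D2:**
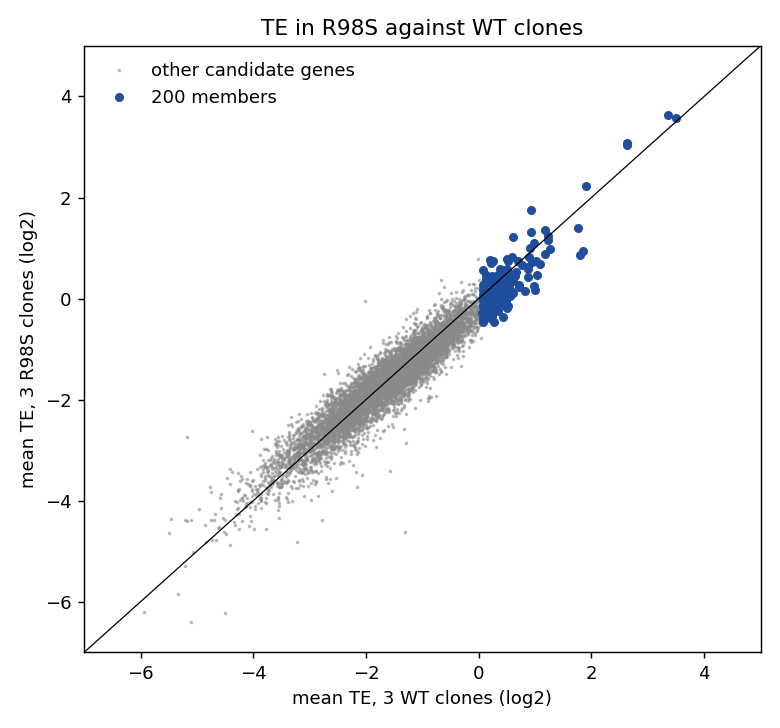
Mean TE over the 3 R98S clones (vertical axis, log2) against mean TE over the 3 WT clones (horizontal axis, log2). Grey points are the other candidate genes, blue points the 200 members, and the line marks equal TE. The members begin at a WT value of 0.066 because that is where the list ends. Of the members, 44 lie above the line and 156 below it. WT values chose them, so nothing is read from that direction.

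Most members were not among the candidates with the most footprints in absolute terms. Their median WT level was 1083 normalized RPF counts, against 319 for candidates, and 767 normalized mRNA counts, against 1088 for candidates. Of the 200 candidates with the most footprints, 32 were members, and members are 2.68% of all candidates. WT footprints entered the choice of members, so nothing is read from this count. Actb, cytoplasmic beta-actin, had the highest RPF mean of any member, and made up 1.19% to 2.39% of all footprints in a library. The 2 tables were normalized separately, so a TE of 0 has no absolute meaning and only the order of genes and the differences between clones can be read.

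Gnas, the stimulatory G protein alpha subunit (chromosome 2, 174284320 to 174346744, GRCm38), had the highest mean WT TE. Its RPF values were 7958, 8188 and 7518 normalized counts in WT clones 28, 29 and 36, and 10098, 15187 and 10432 in R98S clones 11, 13 and 35. Its mRNA values were 419, 958 and 853 in the WT clones and 1021, 1007 and 907 in the R98S clones. The TE was therefore 4.24, 3.09 and 3.14 in WT and 3.30, 3.91 and 3.52 in R98S, and the genotypes overlapped. In the annotation, 22.0% of its exon bases are shared with genes on the opposite strand.

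Hypk, a small partner of the NatA N-terminal acetyltransferase (chromosome 2, 121453290 to 121458672), followed with a TE of 2.87, 3.43 and 3.76 in WT clones 28, 29 and 36 and of 3.64, 4.01 and 3.22 in R98S clones 11, 13 and 35. Its mRNA counts were low, between 67 and 125 in all 6 clones. Exon bases of Hypk are shared with Serf2 on the same strand (35.9%) and with Serinc4 on the opposite strand (29.9%). Cmtr1, the cap methyltransferase that modifies the first transcribed nucleotide (chromosome 17, 29660595 to 29705979), had a TE of 2.81, 2.31 and 2.77 in WT and of 3.04, 3.02 and 3.21 in R98S. All 3 R98S values exceeded all 3 WT values, yet the difference of 0.46 ± 0.32 (SE) did not pass (limma, adjusted p = 0.70). Cmtr1 shares 36.3% of its exon bases on the same strand and 47.2% on the opposite strand.

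Ckm, the muscle creatine kinase (chromosome 7, 19404776 to 19422841), had a TE of 2.03, 2.91 and 2.96 in WT clones 28, 29 and 36 and of 2.82, 3.42 and 2.86 in R98S clones 11, 13 and 35. Timm10b, a small chaperone of mitochondrial protein import, stood at 1.36, 1.95 and 2.42 in WT and at 2.29, 2.62 and 1.78 in R98S. Its mean of 1.91 ± 0.53 (SD, n = 3) was close to that of the next gene, H2afx, at 1.86 ± 0.12 (SD, n = 3). Between neighbouring genes further down, such as Aimp2 at 1.27 ± 0.29 (SD, n = 3) and Naa38 at 1.24 ± 0.33 (SD, n = 3), the difference was within the spread of the clones.

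The other genes among the first 20 came from various processes. Dpysl2 binds tubulin, Emc1 belongs to the ER membrane insertase, Aimp2 is a scaffold of the multisynthetase complex, Naa38 is an auxiliary subunit of an N-terminal acetyltransferase, and Bloc1s1 acts in lysosome-related organelles. Gatad2b is a subunit of a chromatin remodelling and deacetylase complex, Spsb3 a ubiquitin ligase adaptor, Vcl the adhesion protein vinculin, Il16 a cytokine, Grn the lysosomal precursor progranulin, Apex1 a base excision repair endonuclease, and Cideb a lipid droplet protein; Cntnap1 and Grcc10 complete the group. Of these 20 genes, 13 were also among the 20 highest in R98S clones.

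Several of the first 20 places rested on WT clone 28, as shown here for Gatad2b and Vcl. Gatad2b had a TE of 3.38 in that clone, 0.29 in WT clone 29 and -0.12 in WT clone 36, with 134 normalized mRNA counts in WT clone 28 and 1118 and 1083 in the others. Vcl had a TE of 2.71, 0.24 and 0.30. On WT clones 29 and 36 alone, Gatad2b ranked at 140 and Vcl at 82, and 14 of the 20 stayed among the 20 highest.

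**Figure D3:**
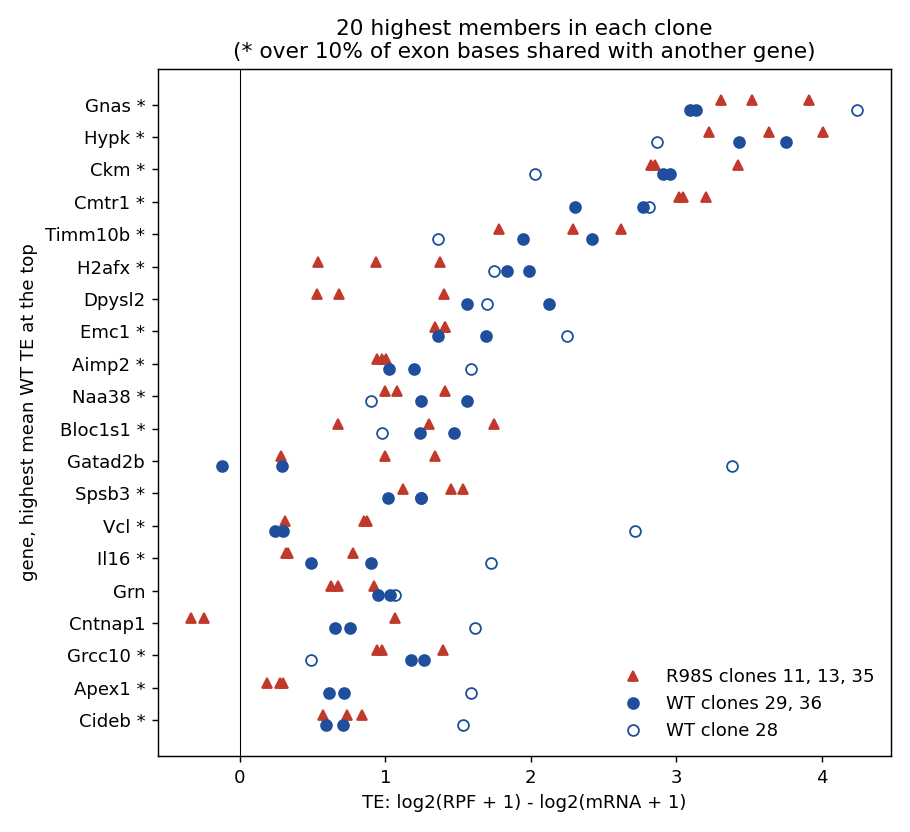
TE (log2, horizontal axis) of the 20 members with the highest mean WT TE, 1 gene per row. Red triangles are R98S clones 11, 13 and 35, filled blue circles WT clones 29 and 36, the open circle WT clone 28, and a star marks the 16 genes with over 10% of exon bases shared with another annotated gene; the open circles of Gatad2b and Vcl lie far to the right of the other WT clones.

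Overlap with another gene was common at the top. More than 10% of exon bases were shared with another annotated gene, on either strand, in 16 of the first 20 members (80.0%), in 40 of the 180 below them (22.2%) and in 927 of 7431 candidates (12.5%). On the opposite strand alone the counts were 14 of 20 (70.0%), 33 of 180 (18.3%) and 793 of 7431 (10.7%). Dpysl2, Gatad2b, Grn and Cntnap1 were the 4 among the first 20 with at most 5% shared. The mRNA libraries were made with a stranded kit, but whether the counting used strand, and what it did with reads that lie in more than 1 gene, is not given in the sources used here. The mRNA counts, and hence the TE, of the overlapping genes are uncertain for that reason, and the part of overlap in their rank was not tested.

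Sequence shared with other loci touched fewer members. Over 10% of the coding 30-base words of a gene were found in a gene elsewhere for 12 members (6.0%) and for 13.1% of candidates. H2afx, the histone variant that is phosphorylated beside DNA breaks (chromosome 9, 44334694 to 44336077), is one of them, with 30.3% of its words also in replication-dependent histone genes. The longest run it shares with Hist1h2ab (chromosome 13, 23751126 to 23751598) is 117 bases, and 30 of them, coding positions 181 to 210, are shown because reads from them cannot be placed with one gene.
H2afx and Hist1h2ab: gccgagatcctggagctggcgggcaacgcg

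The members differed from the candidates in how much of the transcript is coding. In the transcript with the longest coding sequence, the coding share had a median of 71.6% in members and 55.7% in candidates. The 3′ untranslated region had a median of 492.5 nt against 953 nt, the 5′ untranslated region 140.5 nt against 163 nt, and the coding sequence 1665 nt against 1470 nt. Footprints were counted over coding sequence and mRNA reads over all exons, so the coding share enters TE by construction. Across the 7431 candidates its Spearman correlation with mean WT TE was 0.33, and that of the length of the 3′ untranslated region was -0.32; the points share their libraries and are no replicates. Members with at most 5% of exon bases shared with another gene, 134 of 200, had a median coding share of 74.2%.

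The count of each assay was therefore also divided by the length it was counted over: the coding sequence less its first 15 and last 5 codons for RPF, and the whole transcript for mRNA. By this measure 54 of the 200 members were still among the 200 highest, with a median rank of 462.5 and a lowest rank of 1773. Of the first 20 members 18 stayed among the 200 highest, and Grn and Cntnap1 ranked at 203 and 208.

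**Figure D4:**
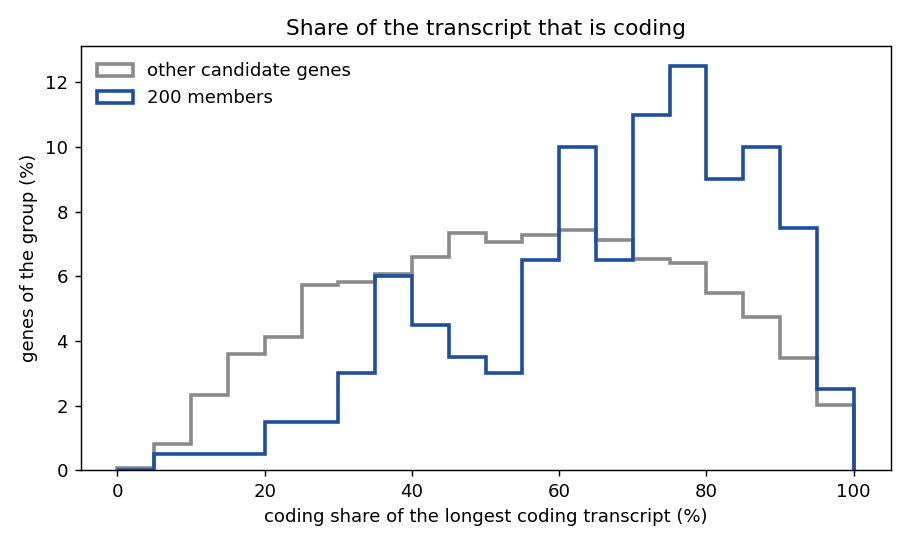
Share of the longest coding transcript that is coding sequence (horizontal axis, %, bins of 5 percentage points) as a percentage of genes in each group. The blue line is the 200 members, with a median of 71.6%, and the grey line the other candidate genes; members are shifted to the right.

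Base composition and protein type differed too. The GC content of the coding sequence had a median of 56.3% in members and 52.5% in candidates, and at the third position of codons the medians were 66.9% and 59.4%. A hydrophobic stretch near the N-terminus (10 residues with a mean hydropathy of at least 2 within the first 30 after the initiator), a feature of secretory signal peptides and of N-terminal membrane anchors that was chosen after other results were seen, was predicted for 55 members (27.5%) and for 12.6% of candidates. A 19-residue segment with a mean hydropathy of at least 1.6 anywhere in the protein occurred in 89 members (44.5%) and in 30.5% of candidates.

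In all, 79 members fell into 25 of 29 functional lists and 121 into none. The share of list members among all candidates, 2.68%, is the value each list is set beside. Every share rests on the choice that includes WT clone 28, the clone that stood apart. A choice on WT clones 29 and 36 alone kept 146 members, and the shares were not counted for it. How far the shares depend on WT clone 28 was therefore not tested. They were not counted per length either, a measure by which 54 of the 200 members stayed among the 200 highest. How far the shares depend on the coding share of the transcript was not tested. ER chaperones, translocon and glycosylation genes held 9 members of 60 candidates (15.0%), lysosomal genes 7 of 41 (17.1%), cholesterol and fatty acid genes 5 of 32 (15.6%), and cytoskeleton genes 13 of 121 (10.7%). Nucleotide and amino acid synthesis held 4 of 46 (8.7%), aminoacyl-tRNA synthetases with their scaffolds 3 of 37 (8.11%), and surface receptors 4 of 76 (5.26%). No member came from the 22 glycolysis and pentose phosphate genes, the 65 genes of the chaperonin and heat shock list, the 8 iron genes or the 5 granule genes. That does not make them poorly footprinted. By median WT TE rank, the glycolysis list stood at percentile 87.4 of the candidates and the granule list at 74.2. The chaperonin and heat shock list stood at 57.8 and the iron list at 53.6. At a share of 2.68%, lists this short can hold no member without being low. Splicing factors held 2 of 168 (Snrpf and Ptbp1) and chromatin genes 1 of 111 (H2afx).

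Among the ER genes, Prkcsh, the glucosidase II beta subunit, had a TE of 0.88 ± 0.25 in WT and 0.62 ± 0.26 in R98S (SD, n = 3 clones each, as for all values in this form). Ppib, a peptidyl-prolyl isomerase of the ER, stood at 0.61 ± 0.53 and 0.35 ± 0.09, Hyou1, an ER chaperone of the HSP110 family, at 0.42 ± 0.44 and 0.51 ± 0.13, and Calr, the lectin chaperone calreticulin, at 0.34 ± 0.68 and -0.25 ± 0.04. Without clone 28 the WT means were 0.74 for Prkcsh, 0.31 for Ppib, 0.17 for Hyou1 and -0.056 for Calr. None of the 63 ER genes tested passed for TE. The median TE difference, R98S minus WT, was 0.083 over these 63 genes. For the 9 members, chosen for high WT values, it was -0.21 with 2 of 9 above 0, and 0.028 with 5 of 9 above 0 without WT clone 28.

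Among the lysosomal members, Grn stood at 1.02 ± 0.06 in WT and 0.74 ± 0.16 in R98S, Psap, the precursor of the saposins, at 0.66 ± 0.08 and 0.53 ± 0.11, and Man2b1, the lysosomal alpha-mannosidase, at 0.35 ± 0.05 and 0.47 ± 0.19. Gaa, acid alpha-glucosidase, was at 0.47 ± 0.54 and 0.46 ± 0.17, with a WT mean of 0.16 without clone 28. Of 42 lysosomal genes tested for RPF, 1 was higher and 4 were lower in R98S (3.13% and 4.62% of all genes tested), and none of the 7 members was among them.

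The 13 cytoskeleton members included the actins Actb, Acta2 and Actg2 and the focal adhesion proteins Vcl and Tln1. Tln1, talin, had a TE of 0.50 ± 1.00 in WT and -0.18 ± 0.26 in R98S, with a WT mean of -0.064 without clone 28. Actb was at 0.52 ± 0.11 in WT and 0.75 ± 0.33 in R98S. Of 130 cytoskeleton genes tested for RPF, 5 were higher and 17 lower in R98S, against 3.13% and 4.62% of all genes tested, and 3 members, Acta2, Vim and Tuba8, were among the lower ones. For mRNA, 7 of 141 were higher and 11 lower, against 3.03% and 3.91% of all genes tested. Of the members, 1 was higher and 3 were lower in mRNA.

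The lipid group contained Fasn, fatty acid synthase, at 0.54 ± 0.90 in WT and 0.45 ± 0.04 in R98S, Dhcr7, the last enzyme of cholesterol synthesis, at 0.15 ± 0.35 and -0.01 ± 0.12, and the desaturase Fads2 at 0.09 ± 0.92 and -0.22 ± 0.04. Without clone 28 the WT means were 0.020 for Fasn, -0.038 for Dhcr7 and -0.44 for Fads2. Of 34 lipid genes tested for RPF, none was higher and 8 were lower in R98S (4.62% of all genes tested were lower), and 2 of the 5 members were among them. For mRNA, none of 36 was higher and 7 were lower (3.91% of all genes tested were lower), 1 member included.

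The surface receptors were the integrin chains Itgb2, Itgb7 and Itgb4 and the adhesion receptor Icam1, which stood at 0.72 ± 0.62 in WT, 0.36 without clone 28, and 0.22 ± 0.11 in R98S. Cad, the trifunctional enzyme that starts pyrimidine synthesis, was at 0.36 ± 0.72 in WT, -0.052 without clone 28, and 0.21 ± 0.16 in R98S, beside the purine enzymes Adsl and Pfas and the ornithine aminotransferase Oat. The synthetase Mars stood at 0.49 ± 0.36 in WT, 0.28 without clone 28, and 0.20 ± 0.22 in R98S, and Vars at 0.08 ± 0.12 in WT and 0.17 ± 0.19 in R98S. The ribosome biogenesis factors Rrp12, Mybbp1a and Utp20 were 3 of 73 nucleolar genes. Transcription factors held 3 of 201, namely Cebpb, Zfp36l1 and Trp53.

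Solute carriers held 3 members of 127 candidates (the zinc transporter Slc39a4, the glucose transporter Slc2a1 and the amino acid transporter heavy chain Slc3a2), membrane traffic 4 of 174 (Cope, Ap1b1, Cltc and Vps51), and the ubiquitin system 4 of 167 (Uba1, Ubr4, Fbxl15 and Otub1). Signal transduction held 5 of 182, of which Prkcsh entered by its symbol and is an ER enzyme. These shares lay between 2.3% and 2.75%, close to the 2.68% of all candidates.

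No member passed the TE test. With limma across 9043 genes, 0.0221% were called at an adjusted p of 0.1, which is 2 genes, both lower in R98S, and neither was a member; the smallest adjusted p of a member was 0.59. At an unadjusted p of 0.05, 11 members were reached (5.5%), 1 higher and 10 lower, against 7.85% of all genes (4.16% higher and 3.69% lower). edgeR and the unpaired fit called no member either, and DESeq2 called 1, H2afx. In the simulated data, 132 of 200 genes changed by 1.5 log2 units were recovered for TE among 9219 genes. The largest TE difference of a member was 0.92 in absolute value, and recovery of changes of that size was not simulated. The simulated RPF and mRNA were drawn independently, with a common dispersion in each assay and no clone effects.

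The TE differences of members leaned to lower values in R98S. Their median was -0.20, against -0.00143 over all genes tested, with 44 members higher and 156 lower, but it was 0.00233 without WT clone 28. The same lean was seen where the groups of clones did not overlap, in which all 3 R98S values were below all 3 WT values for 28 members (14.0%; 7.36% of all genes) and above them for Cmtr1 and Dedd (7.45% of all genes). High WT values chose the members, so these counts are a description and nothing is read from their direction.

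A choice that leaves out a WT clone allows a reading on values that the choice did not use. Each value is the median over the chosen genes of the TE difference, R98S minus WT, after the candidate median of each clone was set to 0. With all 3 WT clones it was -0.19. For 200 genes chosen without WT clone 28 and read against that clone alone it was -0.17, without clone 29 it was 0.034 and without clone 36 it was -0.037. For the 200 highest in R98S clones it was -0.041, but that choice used the R98S values that enter the difference. The centred member median itself had an SD of 0.086 over the R98S clones and of 0.29 over the WT clones, clone 28 included. No test was made of these medians.

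The largest TE falls were those of Dpysl2, H2afx, Cntnap1, Gtf3a and Gfi1b, none of which passed. H2afx had a TE of 1.75, 1.84 and 1.99 in WT clones 28, 29 and 36 and of 0.54, 1.38 and 0.93 in R98S clones 11, 13 and 35, a difference of -0.91 ± 0.27 (SE, limma, adjusted p = 0.63). The R98S values were all below the WT values, and its mRNA counts were 2422, 1463 and 1470 in WT and 2855, 2462 and 2744 in R98S. H2afx is among the 16 of the first 20 members with over 10% of exon bases shared with another gene. It also shares coding sequence with histone genes, so its mRNA counts and TE are uncertain. Gtf3a, the 5S rRNA transcription factor, stood at 0.74, 0.18 and 0.35 in WT and at -0.39, -0.34 and -0.34 in R98S, a difference of -0.78 ± 0.21 (adjusted p = 0.59). Dpysl2 had a difference of -0.92 ± 0.29 (adjusted p = 0.63), with WT values of 1.56 to 2.13 and R98S values of 0.53 to 1.40 that did not overlap.

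The largest rises were those of Cebpb, 1110001J03Rik, Fbxl15, Bola1 and Arsb, and they did not pass. Cebpb, a transcription factor whose mRNA has an upstream open reading frame, had a TE of 0.32, 0.96 and 1.48 in WT clones 28, 29 and 36 and of 1.57, 2.29 and 1.41 in R98S clones 11, 13 and 35. The groups overlapped, and the difference was 0.84 ± 0.35 (adjusted p = 0.63). Its RPF counts were 1214, 763 and 1069 in WT and 723, 1230 and 1112 in R98S, while its mRNA counts were 975, 391 and 383 in WT and 244, 251 and 417 in R98S.

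Changes of members lay in mRNA and footprints. Among the 11344 genes tested for mRNA, 6.94% were called, 3.03% higher and 3.91% lower in R98S, and among members 11 of 200 were (5.5%), 5 higher and 6 lower. Among the 9580 genes tested for RPF, 7.76% were called, 3.13% higher and 4.62% lower, and among members 20 of 200 were (10.0%), 4 higher and 16 lower. WT footprints entered the choice of members, so nothing is read from the difference between 8.0% and 4.62%. In all 22 members were called, 11 in RPF alone, 2 in mRNA alone and 9 in both, and these 9 had the same direction in both measures, 3 higher and 6 lower. The median mRNA difference of members was 0.096 (0.013 over all genes) and the median RPF difference -0.071 (0.014 over all genes), and without WT clone 28 they were -0.000342 and 0.058.

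Acta2, smooth muscle alpha-actin, changed most. Its RPF counts were 3029, 1828 and 3626 in WT clones 28, 29 and 36 and 228, 50 and 76 in R98S clones 11, 13 and 35, and its mRNA counts were 2049, 1830 and 3915 in WT and 231, 34 and 98 in R98S. The groups did not overlap in either measure. The difference was -4.82 ± 0.46 for RPF (adjusted p = 6.0e-04) and -4.71 ± 0.58 for mRNA (adjusted p = 0.0023), and that of TE was -0.10 ± 0.28 (adjusted p = 0.93).

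An intermediate filament and a tubulin gene of the cytoskeleton list fell as well. Vim, vimentin, had 14800, 11564 and 10186 RPF counts in WT clones 28, 29 and 36 and 4426, 1868 and 4002 in R98S clones 11, 13 and 35. It differed by -1.91 ± 0.31 in RPF (adjusted p = 0.011) and by -1.33 ± 0.31 in mRNA (adjusted p = 0.047), and no WT value was reached in R98S. Its TE was -0.38, -0.38 and -0.39 in R98S and 0.78, -0.08 and -0.12 in WT, which did not overlap but did not pass either (adjusted p = 0.63). Tuba8, an alpha-tubulin, differed by -1.47 ± 0.25 in RPF (adjusted p = 0.013) and by -1.33 ± 0.29 in mRNA (adjusted p = 0.035).

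Itgb7, the beta 7 integrin chain of lymphocyte homing receptors, had 1805, 2526 and 1505 RPF counts in WT and 499, 471 and 955 in R98S. It fell in RPF (-1.64 ± 0.28, adjusted p = 0.013) and in mRNA (-1.44 ± 0.25, adjusted p = 0.014). Ubqln2, a ubiquilin that links ubiquitinated proteins to the proteasome, fell in RPF (-0.87 ± 0.19, adjusted p = 0.034) and narrowly in mRNA (-0.58 ± 0.17, adjusted p = 0.0996). Further genes that were lower in RPF alone were Maged2, Iqgap3, Aldh2, Pstpip2, Hmox2, Abcg1, Stt3a, Dpm3 and Clu, with differences from -1.10 to -0.59. They include the mitochondrial aldehyde dehydrogenase Aldh2, the haem oxygenase Hmox2, the sterol exporter Abcg1, the oligosaccharyltransferase subunit Stt3a and the secreted chaperone Clu. In none of these did the RPF values of the groups overlap, as was so for lower values in 12.8% of all genes.

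Cxcr4, the receptor of the chemokine CXCL12, rose most. Its RPF counts were 933, 1041 and 339 in WT clones 28, 29 and 36 and 4647, 2875 and 1293 in R98S clones 11, 13 and 35, and the mRNA counts were 655, 1011 and 297 against 4131, 2416 and 1152. Both measures rose alike, by 1.90 ± 0.48 in RPF (adjusted p = 0.054) and 1.95 ± 0.50 in mRNA (adjusted p = 0.069), and its TE differed by -0.05 ± 0.20 (adjusted p = 0.96). The range within R98S was wide, and the lowest R98S clone was above the highest WT clone.

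Grhpr, the glyoxylate and hydroxypyruvate reductase, had 748, 822 and 741 RPF counts in WT and 1318, 1415 and 1406 in R98S, a rise of 0.84 ± 0.16 (adjusted p = 0.019), beside a rise of 1.02 ± 0.19 in mRNA (adjusted p = 0.017). Hspa2, an HSP70 family member that the heat shock list does not hold, rose by 1.11 ± 0.24 in RPF (adjusted p = 0.033) and 1.07 ± 0.29 in mRNA (adjusted p = 0.081). Ckm rose in RPF alone, from 2512, 2638 and 2277 counts to 4225, 4644 and 4022, a difference of 0.80 ± 0.17 (adjusted p = 0.027), while its mRNA differed by 0.39 ± 0.29 (adjusted p = 0.53). Ckm is among the 16 of the first 20 members with over 10% of exon bases shared with another gene. Its mRNA counts are therefore uncertain.

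Igf1r, the insulin-like growth factor 1 receptor, rose in mRNA alone, by 1.42 ± 0.39 (limma, adjusted p = 0.086). Its mRNA count in WT clone 28 was 344, the lowest of any clone, and it kept its call without that clone.

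The counts of called members depended on single clones. Without WT clone 28, 5 members were higher and 16 lower in mRNA, and 5 higher and 7 lower in RPF. The 16 lower RPF calls became 6 without R98S clone 11, 6 without R98S clone 13 and 10 without WT clone 36, and 24 without R98S clone 35. The mRNA rises came down to 1 without R98S clone 11, R98S clone 13 or WT clone 36, and the mRNA falls to 3, 3 and 2. The RPF rises came down to 2 without R98S clone 11 and to 1 without R98S clone 13 or WT clone 36, and they were 6 without R98S clone 35. Grhpr and Itgb7 kept their calls in mRNA and RPF under every setting run, and so did Acta2 wherever it was tested, since a minimum of 50 counts in every library removed its mRNA values.

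**Figure D5:**
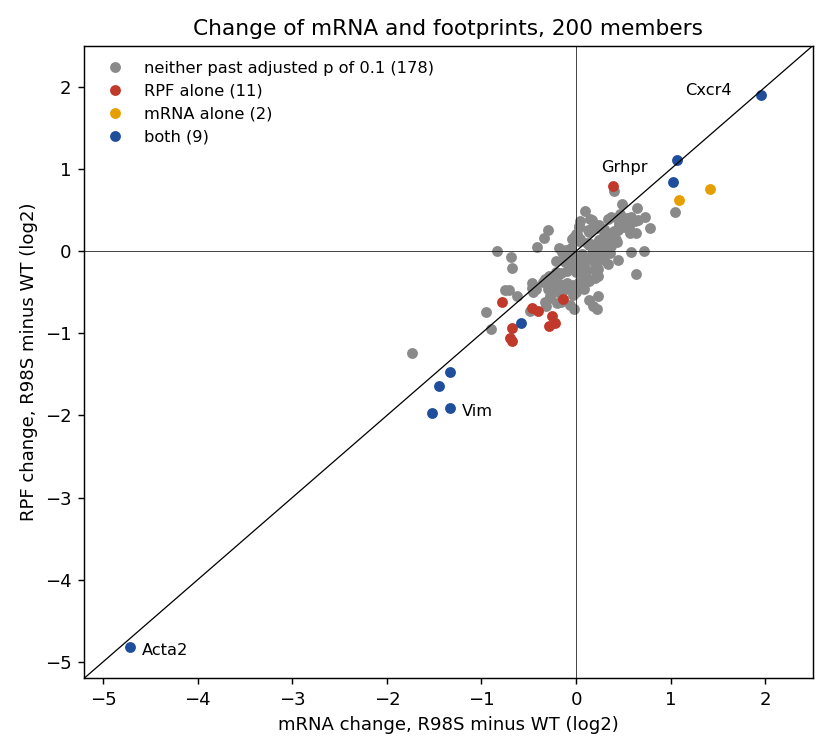
RPF change (vertical axis) against mRNA change (horizontal axis), R98S minus WT on the log2 scale, for the 200 members. Colours mark members past an adjusted p of 0.1 in RPF, in mRNA or in both, and the diagonal marks equal change; Acta2 lies far down at -4.71 and -4.82, close to the diagonal.

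The end of the list is not a natural border. Among the last 5 genes inside were Vps51, Gse1, Arpc4 and Sin3b, and the mean WT TE of the 5 ran from 0.072 down to 0.066. The first 5 outside were Plin2, Aldh18a1, Commd4, Syvn1 and Mdh2, from 0.058 down to 0.051. The SD of TE over the 3 WT clones had a median of 0.22 among these 10 genes, far above the steps between them.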

How the data were processed

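The authors deposited 1 table of signal values per assay, gene counts divided by DESeq2 size factors. Per the methods, adapters were trimmed, rRNA and tRNA reads removed with Bowtie2, and the rest aligned to mm10 (GRCm38) with TopHat2 2.0.11. Footprints were counted over coding sequence without its first 15 and last 5 codons and mRNA reads over exons. Dividing each library by its smallest step gave whole numbers, within 0.001, for 100% of the values above 0, and these reads served for depth and for the count tests. Groups and clone numbers came from the sample labels.

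Tests used limma 3.58.1 (R 4.3.3) with a variance trend on log2(value + 1), for genes with a mean of at least 10 normalized counts (mRNA, RPF) or at least 10 in all 12 libraries (TE), Benjamini-Hochberg adjustment and a threshold of 0.1. The authors' TE test (Babel) was not run. The added 1 shrinks differences of weakly expressed genes. RPF and mRNA libraries were paired by clone, since both labels carry the clone; the deviations of a clone's 2 libraries from the genotype means correlated by 0.22 to 0.68. edgeR 4.0.16, DESeq2 1.42.0 on whole reads, other pseudocounts, filters and scalings, and left-out clones were alternatives. The procedure was tested on simulated data with 200 genes changed by 1.5 log2 units, of which 183 of mRNA, 190 of RPF and 132 of TE were recovered, with 20, 24 and 9 false calls.

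Lengths, start contexts, hydropathy and overlaps came from GENCODE vM21 (GRCm38), matched for all 200 members and 7431 of 7453 candidates. Members, lists and tests were chosen with earlier results of these data known. Genes are named if they are among the 20 highest, called in any measure, among the 5 largest TE rises or falls, among the 5 on either side of the end of the list, or among the 4 highest of a list with at least 3 members; genes named because a count held 5 or fewer were picked with their values in view. The p-values set the difference between genotype means against the spread between clones. Some genes that the naming rule would include are not reported here.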

Additional observations from a re-analysis of the deposited data

How the results depend on the processing

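No member had a TE call in either direction under any setting run except DESeq2, which called 1 lower. DESeq2 on whole reads also gave 9 higher and 13 lower members in mRNA and 7 higher in RPF. Over the fits that each left out 1 clone, mRNA gave 1 to 7 members higher and 2 to 16 lower, RPF gave 1 to 6 higher and 6 to 24 lower, and TE gave 0. The median TE shift of members, -0.19, ran from -0.29 to -0.020 when a clone was left out, and it was 0.034 for genes chosen without WT clone 29 and read against that clone; with members that share little exon sequence it was -0.22, and for genes chosen on and read against WT clones 29 and 36 it was -0.10, both added after the data were seen. With no replicate block, that is without pairing the 2 libraries of a clone, 0 members were called higher and 0 lower in TE, so the block changed no call of a member; clones of the genotypes share no number and were not paired. The overlap with the 200 highest in R98S clones, 140, ran from 119 to 148, and the number of members kept per length was 54, 53 or 47. Among the called members and the 10 largest TE differences, no direction reversed under the settings run, and the directions of other named genes were not followed. Depth limits the mRNA values of WT clone 28, where 1 read is worth 2.69 normalized counts against 0.784 to 0.860 elsewhere. The cause of these differences between settings was not tested.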
